A study of Mus musculus with 12 samples.

Results

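The 10 transcripts described here encode the main enzymes with which mouse liver removes superoxide and peroxides, namely *Prdx1*, *Prdx2*, *Prdx3*, *Prdx5*, *Prdx6*, *Sod1*, *Sod2*, *Cat*, *Gpx1* and *Gpx3*. They were chosen by gene symbol and are 10 of the 45777 genes in the expression table. The study sequenced poly-A RNA of whole livers from male C57BL/6 mice in order to follow acute liver injury by acetaminophen (APAP), a painkiller that is toxic to hepatocytes in overdose. The 12 livers fell into 4 groups of 3: WT given vehicle, WT given APAP, *Gna12* KO (Gα12-/-) given vehicle and *Gna12* KO given APAP. *Gna12* encodes Gα12, a subunit of heterotrimeric G proteins and no label limits the KO to one cell type. Mice were fasted overnight, APAP was injected into the abdomen once at 300 mg/kg, and livers were taken 6 h later. The labels put the mice at 10 to 12 weeks of age and the methods at 8 to 12 weeks, and the WT mice were littermates of the KO mice.

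Superoxide is converted to hydrogen peroxide by superoxide dismutases, of which SOD1 works in the cytosol and SOD2 in the mitochondrial matrix. Hydrogen peroxide is then split by catalase in peroxisomes, or reduced by peroxiredoxins at the expense of thioredoxin and by glutathione peroxidases at the expense of glutathione. APAP is converted by cytochrome P450 enzymes to a quinone imine that consumes glutathione and binds mitochondrial proteins, so hepatocytes in overdose lose one of these reducing supplies while mitochondria form more oxidants.

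Short stretches of promoter and coding sequence are shown first, because the results below set the members beside genes of thioredoxin recycling such as *Txnrd1*, and the selenium enzymes beside their supply. The core of the antioxidant response element, the site of the stress-activated factor NRF2, was searched for as TGACNNNGC on both strands, from 250 bases before to 50 bases after each start listed from RefSeq on GRCm38.p6, where a gene can have several. It occurred in 4071 of 32851 promoters (12.4%) and in 2 of the 9 members with an entry (all but *Prdx6*), *Prdx1* and *Sod1*. The share counts each listed start, whereas a member was counted if any of its starts had a match. A kappa B motif, searched in the same way, occurred in 535 promoters (1.63%) and in 0 of these 9. Windows of 30 bases around the matches of *Prdx1* (chr4:116685456-116685485) and *Sod1* (chr16:90220696-90220725) are set beside that of *Txnrd1* (chr10:82859104-82859133). The matches themselves begin 133 bases (*Prdx1*) and 56 bases (*Sod1*) before the single listed start of the gene. The match of *Txnrd1* begins 92 bases before the second of its 3 listed starts, inside the longest form of the gene. *Txnrd1* encodes thioredoxin reductase and rose after APAP. It was 1 of 3 with a match among the 10 thioredoxin recycling genes searched. Of the 7 genes searched that make or recycle glutathione, 1 had a match. All 3 are read along the gene's plus strand with the reverse complement of the motif in capitals.
Prdx1 promoter: cagggaaagcGCTGAGTCAtcccccgtagg
Sod1 promoter: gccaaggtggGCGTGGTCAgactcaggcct
Txnrd1 promoter: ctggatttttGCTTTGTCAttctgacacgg
A match is a description of these letters and shows neither binding nor regulation.

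The glutathione peroxidases GPX1 and GPX3 carry selenocysteine at the active site, which is read from a TGA codon that elsewhere ends translation. The codon lies at position 47 of the *Gpx1* reading frame, in exon 1 of 2 (chr9:108339451-108339453), and at position 73 of *Gpx3*, in exon 2 of 5 (chr11:54907256-54907258), in the GENCODE annotation of GRCm38. The capitals below mark it in the plus strand of the coding sequence.
Gpx1 codon: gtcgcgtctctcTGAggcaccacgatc
Gpx3 codon: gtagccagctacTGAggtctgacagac
These codons tie both transcripts to the genes of selenocysteine synthesis, whose values are given further on.

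Total gene counts per liver lay between 49737950 and 69566079, with a median of 53353959. *Gna12* was not lower by gene counts under the KO label. It stood at 67.2, 66.6 and 54.6 CPM (gene counts scaled to a common library size) in livers labelled KO given vehicle. WT livers given vehicle stood at 66.7, 34.8 and 63.3 CPM. The KO livers are therefore called livers labelled KO throughout. The study itself checked WT and KO mice by genomic PCR and liver qRT-PCR for *Gna12* and by immunoblots for Gα12. Whether those were the sequenced livers is not stated. One liver stood apart, WT APAP replicate 1. Its factor from the trimmed mean of M values (TMM), which scales counts between libraries, was 0.750 against 0.892 to 1.13 in the other 11. The summed level of 7 erythroid markers was 17367 CPM there and 253 to 749 CPM elsewhere, with *Epb42* at 0 in 10 of the 12 livers, this one among them. The summed neutrophil markers were 126 CPM there and 1.15 to 20.9 CPM elsewhere, with *Camp* at 0 in every liver. The 7 hepatocyte markers analysed summed to 138384 CPM there and to 73273 to 100458 CPM elsewhere. This liver had the highest CPM of all 12 for 6 of the 10 members and the highest of the 6 APAP livers for 8. By deposited TPM (scaled by transcript length) it was instead the lowest of all 12 for *Prdx3*, *Prdx5*, *Prdx6*, *Sod2* and *Cat*, but not for the other members. Its summed TPM of the 10 members, 5343, was also the lowest, so its rank depends on the scale. Results that rest on it are therefore given with and without it, and the part of its blood cell markers in them was not tested.

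By level per transcript length, 4 of the 10 transcripts made up most of the system. The deposited TPM values, which are scaled by transcript length, of *Gpx1*, *Sod1*, *Cat* and *Prdx1* together held 87.5% to 90.4% of the summed TPM of the members in each liver. Over the 6 vehicle livers the mean was 1991 ± 233 TPM for *Gpx1*, 1664 ± 220 TPM for *Sod1*, 1313 ± 234 TPM for *Cat* and 796 ± 114 TPM for *Prdx1* (SD, n = 6). *Prdx6* followed at 285 ± 45.8 TPM and *Prdx5* at 222 ± 16.8 TPM. *Prdx2*, *Prdx3* and *Sod2* lay between 59.6 and 83.3 TPM on average, and *Gpx3*, the plasma enzyme made mainly by kidney, was the lowest at 4.31 ± 1.27 TPM. In this order *Gpx1* overlapped *Sod1*, *Sod1* overlapped *Cat*, *Prdx6* overlapped *Prdx5* and *Prdx2* overlapped *Prdx3* across livers, while the other neighbours did not overlap.

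After APAP the order changed at 2 places among the abundant transcripts. By the mean of 6 livers, *Sod1* (1737 ± 264 TPM) stood above *Gpx1* (1636 ± 202 TPM), and *Prdx1* (1130 ± 111 TPM) above *Cat* (1045 ± 240 TPM). Livers overlapped in both pairs (SD, n = 6). Within APAP livers labelled KO the mean of *Cat* (1197 TPM) was still above that of *Prdx1* (1166 TPM). In WT APAP replicate 1 *Cat* was at 636 TPM, the lowest of all 12 livers. The TPM of *Prdx1* divided by that of *Cat* was 0.478 to 0.833 in vehicle livers and 0.895 to 1.65 in APAP livers, so the ranges of this ratio did not overlap. The ratio of 1.65 was that of WT APAP replicate 1, and the other APAP livers lay at 0.895 to 1.23. The TPM of *Sod1* divided by that of *Sod2* was 26.7 to 29.7 with vehicle and 30.1 to 44.4 with APAP, also without overlap. The third ratio computed, *Prdx1* over *Prdx6*, overlapped, at 2.28 to 4.77 with vehicle and 4.12 to 5.89 with APAP. These ratios were picked after their values were seen and carry no test. The summed TPM of all 10 members was 6493 ± 423 with vehicle and 6184 ± 590 with APAP (SD, n = 6), with overlapping livers.

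**Figure D1:**
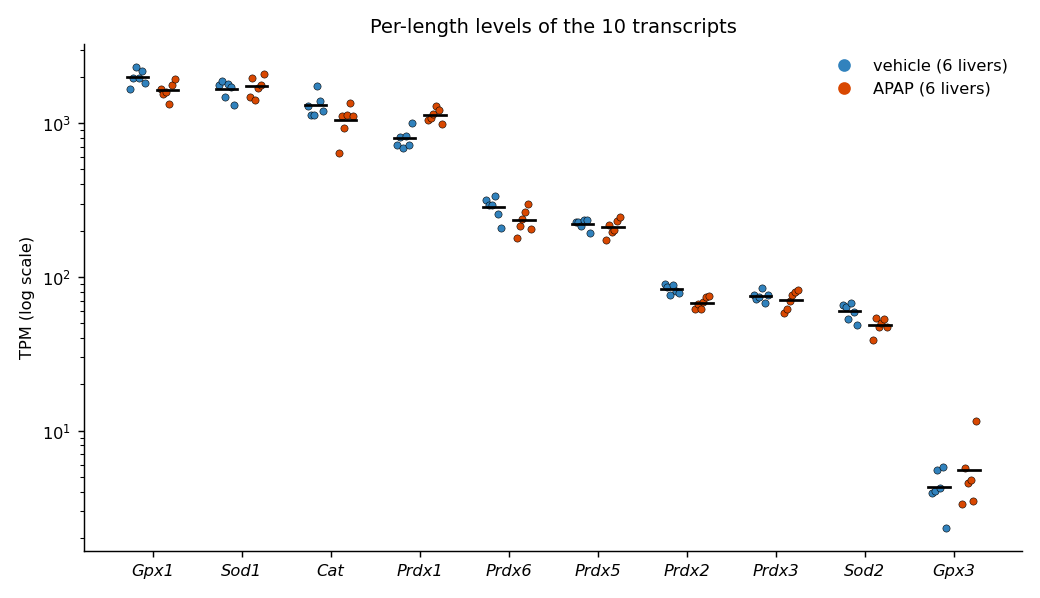
Deposited TPM of each of the 10 transcripts on a log axis in the 6 vehicle livers (blue) and 6 APAP livers (orange), with a bar at the mean. *Gpx1*, *Sod1*, *Cat* and *Prdx1* sit highest, and *Gpx3* lies lowest at means of 4.31 and 5.55 TPM.

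The main comparison asked how an overdose changed these transcripts at 6 h, over all 12 livers and with the genotype label as a term. *Cat*, *Prdx6* and *Sod2* were called lower, with changes of -24.0%, -22.1% and -21.2%, and no member was called higher. The estimate for *Prdx1* was a rise of 37.1% that was not called. The 3 called lower of 10 stand beside 11.4% of all 16509 genes tested called lower, and the 0 called higher beside 14.0%. At an unadjusted p under 0.05 there were 5 members (37.1% of all genes), and DESeq2 and limma also called 0 members higher. The median log2 fold change was -0.22 over the members and 0.01 over all genes. All 10 members passed the filter on low counts. In whole-liver RNA, fewer cells of a type and less RNA per cell cannot be told apart.

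**Figure D2:**
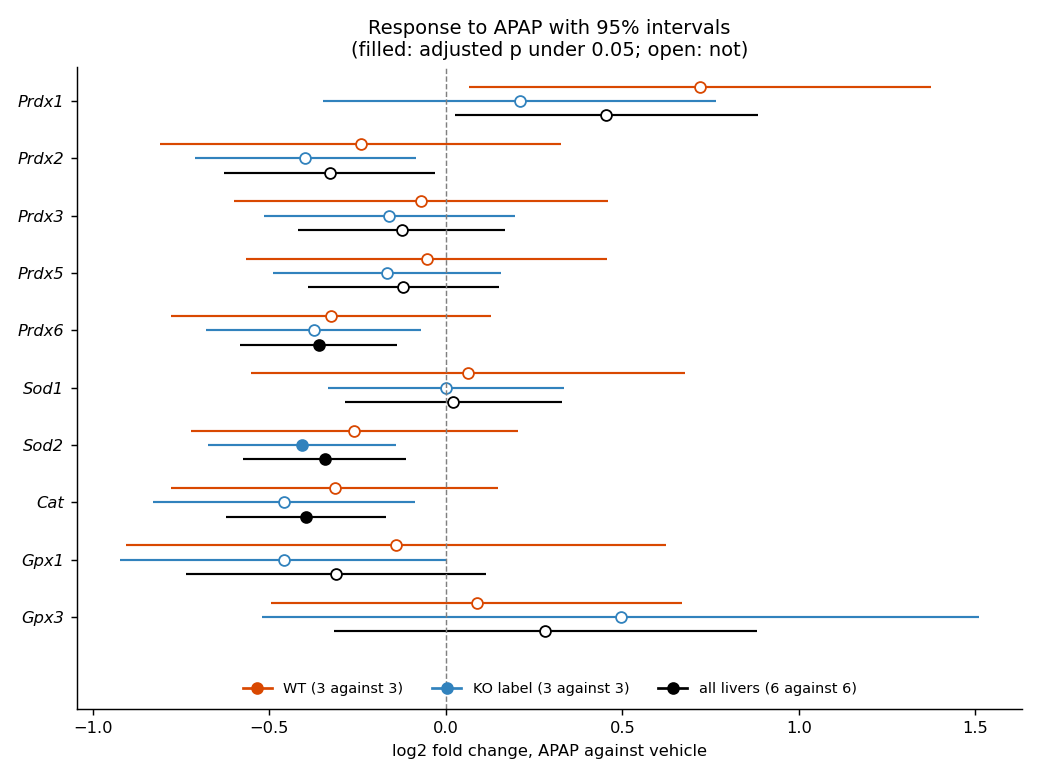
Log2 fold change of APAP against vehicle for each transcript (horizontal axis) with its 95% interval, in WT livers, in livers labelled KO and in all livers, filled where the adjusted p was under 0.05. Over all livers the filled points are *Prdx6* (-0.36), *Sod2* (-0.34) and *Cat* (-0.40).

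*Cat* encodes catalase, the heme enzyme that splits hydrogen peroxide in peroxisomes (chromosome 2, 103453904 to 103485153, GRCm38.p6). It stood at 1905, 1964 and 1885 CPM in WT livers given vehicle and at 1630.5, 1512 and 1453 CPM in WT livers given APAP. In livers labelled KO it stood at 2259, 2148 and 2289 CPM with vehicle and at 1471, 1879 and 1492 CPM with APAP. By CPM every APAP liver was below every vehicle liver, a separation in the lower direction that 5.37% of all genes showed, and *Cat* was the only member with it. The log2 fold change was -0.40 (SE 0.11, 95% interval -0.62 to -0.17, adjusted p = 0.0148). The call held with each of the 12 livers left out (adjusted p 0.00849 to 0.0496) and in all 7 other alternatives. On the TPM scale the 2 treatments overlapped for *Cat*, at 1123 to 1738 TPM with vehicle and 636 to 1350 TPM with APAP.

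*Prdx6* encodes the peroxiredoxin with a single catalytic cysteine, which is recharged by glutathione and also reduces phospholipid peroxides (chromosome 1, 161240112 to 161251210). It stood at 378, 401 and 384 CPM in WT livers given vehicle and at 362, 273 and 286 CPM after APAP. Under the KO label the values were 359.8, 368 and 375 CPM with vehicle and 268, 319 and 258 CPM with APAP. By CPM only WT APAP replicate 1, at 362 CPM, came within the range of the vehicle livers. By TPM that liver was the lowest of all, at 179 TPM, and the treatments overlapped. They lay at 209 to 338 TPM with vehicle and 179 to 296 TPM with APAP. From the counts the log2 fold change was -0.36 (SE 0.10, adjusted p = 0.0214) and -0.42 without WT APAP replicate 1 (adjusted p = 0.00465). The call was lost without KO APAP replicate 1 (adjusted p = 0.0608), KO APAP replicate 3 (0.0676) or WT APAP replicate 3 (0.0512).

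*Sod2* encodes the manganese dismutase of the mitochondrial matrix (chromosome 17, 13007839 to 13018119). Its levels were 145, 166 and 134 CPM in WT livers given vehicle against 149, 110.5 and 110.0 CPM after APAP. Its levels were 131, 135 and 139 CPM under the KO label with vehicle against 97.8, 111 and 95.2 CPM after APAP. By CPM the APAP livers lay below all vehicle livers apart from WT APAP replicate 1. By TPM that liver was the lowest of all, at 38.9 TPM, and the treatments overlapped. They lay at 48.4 to 67.5 TPM with vehicle and 38.9 to 54.0 TPM with APAP. On the log2 scale the change was -0.34 (SE 0.11, adjusted p = 0.0318). This call was the least steady of the 3, since it was lost in 9 of the 12 fits with 1 liver left out, where the adjusted p ranged from 0.00403 (without WT APAP replicate 1) to 0.0948 (without KO APAP replicate 3).

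*Sod1*, its copper and zinc counterpart in the cytosol (chromosome 16, 90220762 to 90226333), was not called. It stood at 616 to 824 CPM in WT and 584 to 661 CPM in livers labelled KO given vehicle, and at 552 to 949 CPM in WT and 547 to 705 CPM in livers labelled KO given APAP. The APAP values spread on both sides of the vehicle values. The estimate was a log2 fold change of 0.02 (SE 0.14, adjusted p = 0.929), with a 95% interval from -0.29 to 0.33. Without WT APAP replicate 1, the highest liver by CPM, the sign turned, to -0.083 (SE 0.12, adjusted p = 0.648). The difference between the 2 dismutases was not itself tested.

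*Prdx1* encodes the most abundant peroxiredoxin of these livers, a cytosolic enzyme that thioredoxin recharges (chromosome 4, 116685599 to 116700000). It stood at 592, 792 and 639 CPM in WT livers given vehicle and at 1498, 819.6 and 990.2 CPM after APAP. Under the KO label the values were 599.8, 613 and 1059 CPM with vehicle and 926, 943 and 741 CPM with APAP. By CPM the WT groups did not overlap, whereas vehicle replicate 3 under the KO label was higher than all APAP livers with that label. By TPM that vehicle liver was at 997 TPM, against 1288, 1220 and 991 TPM in the APAP livers with that label. WT APAP replicate 1, the highest by CPM, was at 1052 TPM, against 1080 and 1147 TPM in the other WT APAP livers. From the counts the log2 fold change of *Prdx1*, 0.46 (SE 0.20, 95% interval 0.03 to 0.88), did not pass the adjustment (adjusted p = 0.113). It was 0.62 without vehicle replicate 3 under the KO label, where the call was made (adjusted p = 0.0197), and 0.31 without WT APAP replicate 1 (adjusted p = 0.183).

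*Prdx2* encodes a cytosolic relative that is very abundant in red cells (chromosome 8, 84969622 to 84974811). It stood at 75.8, 86.0 and 73.4 CPM in WT livers given vehicle and at 90.7, 52.1 and 54.7 CPM after APAP. It stood at 66.1, 70.6 and 85.3 CPM under the KO label with vehicle and at 51.1, 58.7 and 57.5 CPM with APAP. By CPM WT APAP replicate 1 was the highest of all 12 livers and the other 5 APAP livers were below all 6 vehicle livers. By TPM every APAP liver, this one included, was below every vehicle liver, at 61.6 to 74.6 TPM against 76.6 to 89.7 TPM. The log2 fold change of -0.33 (SE 0.14, adjusted p = 0.101) was not called with all livers. Without WT APAP replicate 1 it was -0.46 (adjusted p = 0.00346), and limma on log2(TPM + 1) called it with all livers (-0.34, adjusted p = 0.0118).

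*Prdx3*, the peroxiredoxin of the mitochondrial matrix (chromosome 19, 60864066 to 60874538), and *Prdx5*, found in mitochondria, peroxisomes and cytosol (chromosome 19, 6906697 to 6910106), were not called. *Prdx3* ranged from 58.6 to 82.5 CPM with vehicle and from 47.4 to 84.0 CPM with APAP. Its log2 fold change was -0.13 (SE 0.14, adjusted p = 0.542). *Prdx5* ranged from 153 to 199 CPM with vehicle and from 130.4 to 223 CPM with APAP, and its log2 fold change was -0.12 (SE 0.12, adjusted p = 0.526). WT APAP replicate 1 was the highest of the 12 livers for both by CPM and the lowest for both by TPM. Without it the estimates were -0.23 for *Prdx3* (adjusted p = 0.145) and -0.22 for *Prdx5* (adjusted p = 0.119).

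*Gpx1* encodes the glutathione peroxidase of cytosol and mitochondria (chromosome 9, 108339080 to 108340342). Its levels were 1007, 1415 and 1589 CPM in WT livers given vehicle and 1739, 861 and 1011 CPM after APAP. Under the KO label they were 1053, 1359 and 1432 CPM with vehicle and 708, 1004 and 1065 CPM with APAP. The vehicle groups were themselves wide, and WT APAP replicate 1 was again the highest liver by CPM. By TPM the WT livers did not overlap, at 1667 to 2320 TPM with vehicle and 1539 to 1657 TPM with APAP, that liver included. Livers labelled KO overlapped by TPM, at 1831 to 2170 TPM with vehicle and 1335 to 1930 TPM with APAP. From the counts the log2 fold change was -0.31 (SE 0.20, adjusted p = 0.279) with all livers and -0.48 (SE 0.15, adjusted p = 0.0352) without WT APAP replicate 1.

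*Gpx3* encodes the secreted glutathione peroxidase (chromosome 11, 54902854 to 54910387) and had 120 to 648 counts per liver. It lay between 2.65 and 5.55 CPM with vehicle and between 2.89 and 9.22 CPM with APAP. The highest value was APAP replicate 3 under the KO label, and the other 5 APAP livers lay within the vehicle range. The log2 fold change was 0.28 (SE 0.28, adjusted p = 0.502).

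**Figure D3:**
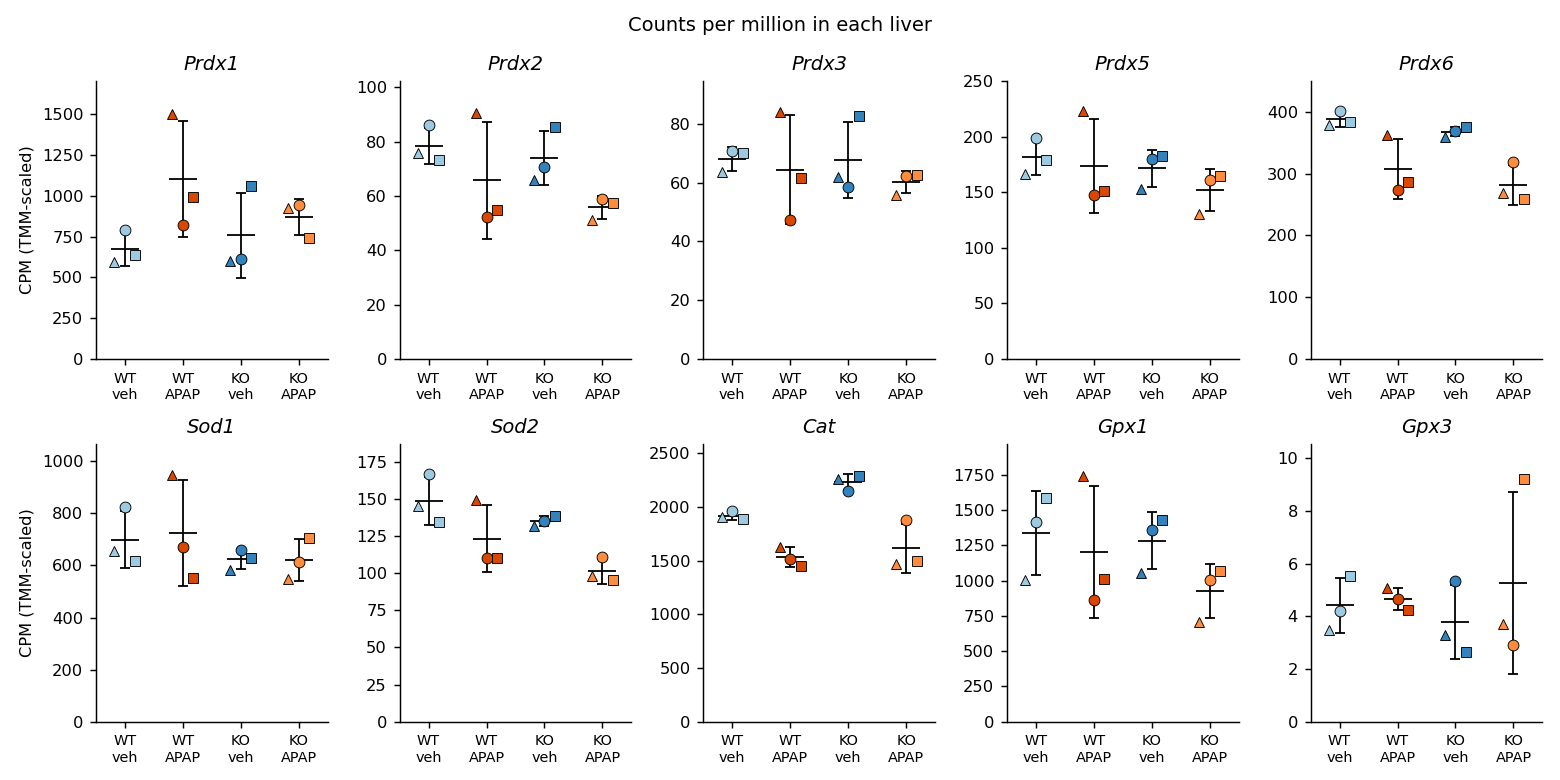
CPM of each transcript in every liver by group (WT or KO label, vehicle or APAP), with replicate 1 as triangles, 2 as circles and 3 as squares, and the mean and SD as bars. The WT APAP triangle is the highest APAP point for 8 of the 10 transcripts, and the APAP points of *Cat* all lie below its vehicle points.

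With the 11 livers left after removing WT APAP replicate 1, 5 members were called lower, namely *Prdx2*, *Prdx6*, *Sod2*, *Cat* and *Gpx1*, and 0 were called higher, beside 12.5% of 16979 genes called lower and 15.8% higher. Their log2 fold changes ran from -0.48 for *Gpx1* to -0.42 for *Prdx6*, *Sod2* and *Cat*. The median over the members was -0.32. From the 3 called with all 12 livers, the count fell to 1, *Cat*, when only KO APAP replicate 1, KO APAP replicate 3 or WT APAP replicate 3 was left out. Beside the erythroid and neutrophil sums given above, *Cyp2e1*, a hepatocyte marker that activates APAP, fell by 1.06 on the log2 scale over all livers (SE 0.14, adjusted p = 0.000262), and it was the 1 of 7 hepatocyte markers called. Of the other markers tested, 0 of 5 erythroid and 0 of 6 Kupffer cell genes were called (0 of each at an unadjusted p under 0.05), 1 of 5 neutrophil genes was higher, 2 of 6 endothelial genes were higher, and 1 of 6 stellate genes was higher and 1 lower. Over all livers 14.0% of all genes were called higher and 11.4% lower. All 5 neutrophil genes had an unadjusted p under 0.05, with a median log2 fold change of 2.79, whereas without WT APAP replicate 1 there were 0 called and 1 at that unadjusted p, with a median of 1.69. The part of these cell types in the members' values was not tested.

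Within WT livers alone, 0 of the 10 members were called. This was read beside 1.62% of 15693 genes called higher and 0.427% called lower by edgeR's quasi-likelihood test. *Prdx1* had the largest estimate, a log2 fold change of 0.72 (SE 0.28, 95% interval 0.06 to 1.38, adjusted p = 0.237), and was the 1 member with an unadjusted p under 0.05. *Prdx6* was at -0.33 (SE 0.20, adjusted p = 0.425) and *Sod2* at -0.26 (SE 0.20, adjusted p = 0.536). Without WT APAP replicate 1, 1 of the 3 livers in its group, the estimates were 0.42 for *Prdx1* (adjusted p = 0.334), -0.47 for *Prdx6* (adjusted p = 0.173) and -0.43 for *Sod2* (adjusted p = 0.217), and *Prdx2* and *Gpx1* were at -0.55 and -0.51. With all 6 WT livers the 5 tested erythroid genes were all above 0 in estimate, with a median of 4.43 and 0 called. WT groups did not overlap for *Prdx1* in the higher direction, as for 12.9% of all genes, nor for *Prdx6* and *Cat* in the lower direction, as for 11.9%. DESeq2 and limma on TPM also called 0 members in WT livers.

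Within livers labelled KO, *Sod2* fell by 0.41 on the log2 scale (SE 0.12, 95% interval -0.67 to -0.14, adjusted p = 0.0387) and was the 1 member called, beside 13.0% of 15665 genes called higher and 9.6% lower. *Prdx2* at -0.40 (SE 0.14, adjusted p = 0.0688), *Prdx6* at -0.37 (SE 0.13, adjusted p = 0.0762) and *Cat* at -0.46 (SE 0.16, adjusted p = 0.0757) lay just past the threshold. For these 4 genes every APAP liver was below every vehicle liver by CPM, as for 21.1% of all genes. By TPM only *Prdx2* kept that separation, and *Prdx6* overlapped, at 209 to 338 TPM with vehicle and 205 to 296 TPM with APAP, with an estimate of -0.19 on log2(TPM + 1). DESeq2's Wald test called all 4. The *Sod2* call was lost with either replicate 1 or replicate 3 of KO APAP left out, or with any KO vehicle replicate left out (adjusted p 0.0851 to 0.129). Among markers in these livers, all 6 Kupffer cell genes were below 0 in estimate (median -0.45, 0 called, 2 at an unadjusted p under 0.05), 2 of 6 stellate genes were called lower, 2 of 6 endothelial genes lower and 1 higher, and 1 of 4 neutrophil genes higher, and their part in the members' values was not tested. The WT and KO comparisons share no livers with each other, and each shares all of its livers with the comparison over 12.

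The question of the genotype label was asked separately for each treatment, and 0 members were called in either. With vehicle, 0.0131% of 15262 genes were higher and 0.0131% lower under the KO label. There *Cat* was higher (log2 fold change 0.22, SE 0.15, 95% interval -0.14 to 0.57, adjusted p = 0.77) and *Prdx6* lower (-0.08, SE 0.13, 95% interval -0.37 to 0.22, adjusted p = 0.904) in estimate. Neither gene's vehicle groups overlapped by CPM, as for 7.46% of genes in the higher and 6.53% in the lower direction. By TPM both overlapped. *Cat* lay at 1123 to 1291 TPM in WT and 1198 to 1738 TPM under the KO label, and *Prdx6* at 294 to 317 TPM and 209 to 338 TPM. The other 8 members overlapped by CPM, with log2 fold changes from -0.23 for *Gpx3* to 0.16 for *Prdx1*. At an unadjusted p under 0.05 there were 0 members, and DESeq2 called 0.

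After APAP, 0.0185% of 16174 genes were higher and 0.0124% lower under the KO label, and 0 members were called, also at an unadjusted p under 0.05 and by DESeq2. All 10 members overlapped between labels by CPM, whereas 8.73% of genes did not. By TPM *Prdx2* and *Prdx3* did not overlap and were higher under the KO label. *Prdx2* lay at 61.6 to 66.8 TPM in WT and 68.9 to 74.6 TPM under the KO label, and *Prdx3* at 57.9 to 70.0 TPM and 76.1 to 81.8 TPM. From the counts the estimates were below 0 for 8 of the 10 members. They ran from -0.40 for *Gpx1* (SE 0.31, 95% interval -1.12 to 0.32) and -0.36 for *Prdx1* (SE 0.27, 95% interval -0.98 to 0.26) to -0.11 for *Prdx3* (SE 0.23). Without WT APAP replicate 1 the estimate was -0.02 for *Gpx1* and -0.06 for *Prdx1*, and it turned to 0.06 for *Prdx2*, 0.14 for *Prdx3*, 0.02 for *Prdx5* and 0.02 for *Sod1*. For *Prdx6* it was -0.14 with all livers, 0.0075 without that liver and 0.09 on log2(TPM + 1), and for *Gpx3* it was 0.16 with all livers and -0.51 without KO APAP replicate 3. Over the 14 alternatives run for this comparison the sign was kept for *Prdx1*, *Sod2* and *Gpx1* only.

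**Figure D4:**
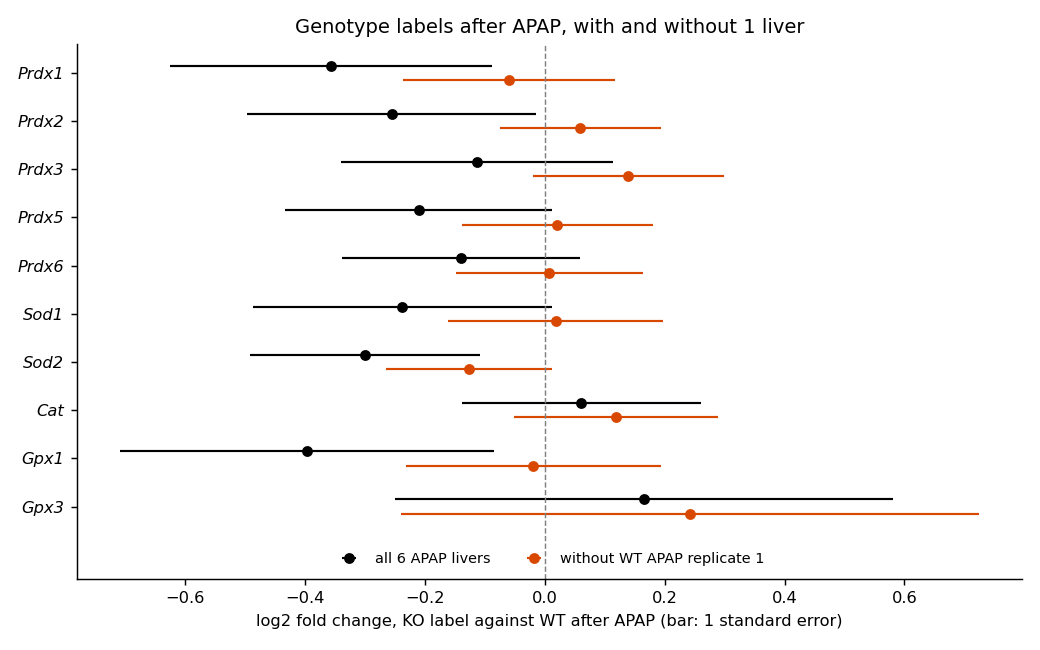
Log2 fold change of the KO label against WT after APAP for each transcript, with 1 standard error, from all 6 APAP livers (black) and without WT APAP replicate 1 (orange). The orange points of *Prdx2*, *Prdx3*, *Prdx5*, *Prdx6* and *Sod1* lie on the other side of 0, and *Cat* and *Gpx3* are above 0 in both.

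The test of whether APAP acted differently under the labels called 0 of 16509 genes (0.0%) and 0 members, with 0 members at an unadjusted p under 0.05, whereas DESeq2 called 9 genes and 0 members. The interaction was -0.51 for *Prdx1* (SE 0.38, 95% interval -1.35 to 0.33, adjusted p = 0.878) and -0.15 for *Sod2* (SE 0.22, 95% interval -0.62 to 0.33, adjusted p = 0.921). For *Cat* it was -0.14 (SE 0.21, 95% interval -0.61 to 0.32, adjusted p = 0.922). Without WT APAP replicate 1 the interaction was -0.20 for *Prdx1*, 0.034 for *Sod2* and -0.077 for *Cat*, and without KO vehicle replicate 3 it was -0.19 for *Prdx1*. The intervals are wide enough to hold differences as large as the responses themselves.

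The genes that recharge or supply these enzymes were compared over the same 12 livers, and they spread more widely than the members. Of 11 tested genes of thioredoxin recycling, 4 were called higher and 1 lower (14.0% and 11.4% of all genes), with a median log2 fold change of 0.28. *Srxn1*, sulfiredoxin, which repairs overoxidized peroxiredoxins, stood at 24.5 to 36.8 CPM with vehicle and 410.0 to 1006 CPM with APAP. This was a rise of 4.35 on the log2 scale (SE 0.20, adjusted p = 8.42e-08). *Txnrd1*, cytosolic thioredoxin reductase, rose by 1.89 (SE 0.20, adjusted p = 5.54e-05), and *Txnl1*, a thioredoxin-like protein, by 0.56 (SE 0.10, adjusted p = 0.00192). The mitochondrial reductase *Txnrd2* fell by 0.36 (SE 0.09, adjusted p = 0.00968). The count called lower was 2 without WT APAP replicate 1, beside 12.5% of all genes.

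Of 9 genes that make or recycle glutathione, 5 were called higher and 0 lower (14.0% and 11.4% of all genes), with a median of 0.43. *Gclc*, the catalytic subunit of the enzyme that limits glutathione synthesis, stood at 119 to 187 CPM with vehicle and 1080.1 to 1982 CPM with APAP, and rose by 3.09 (SE 0.16, adjusted p = 1.45e-07). *Gsr*, glutathione reductase, rose by 0.95 (SE 0.09, adjusted p = 2.81e-05). *Slc7a11*, the cystine importer, had 0 counts in 5 vehicle livers and 4 counts in the sixth, against 73 to 461 counts in the APAP livers (adjusted p = 1.2e-05), and no fold is given for it. Both reducing systems held genes whose groups lay far apart, while the members' estimates on the same scale lay between -0.40 and 0.46.

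The genes for selenocysteine, on which *Gpx1* and *Gpx3* depend, held 3 called lower and 0 called higher of 7 tested, with a median of -0.29. Of all genes 11.4% were called lower and 14.0% higher. *Sepsecs*, the last enzyme of selenocysteine synthesis on its tRNA, fell by 0.68 (SE 0.09, adjusted p = 0.000315). *Selenop*, the selenium carrier that liver secretes, fell by 0.48 (SE 0.13, adjusted p = 0.0189), and *Sephs2*, which makes the selenium donor, fell by 0.52 (SE 0.16, adjusted p = 0.036). The count called lower was 2 without WT APAP replicate 1, where 12.5% of all genes were called lower.

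On the side of production, 6 of 11 oxidases that release hydrogen peroxide were called lower and 1 higher, with a median of -0.46. This stands beside 11.4% of all genes called lower and 14.0% higher. *Aox1*, aldehyde oxidase, rose by 0.68 (SE 0.11, adjusted p = 0.000885). *Pipox*, a peroxisomal oxidase of pipecolic acid and sarcosine, fell by 0.56 (SE 0.12, adjusted p = 0.00437), and *Paox*, peroxisomal polyamine oxidase, also fell by 0.56 (SE 0.13, adjusted p = 0.00594). Among 10 genes of peroxisomal protein import, 2 were called lower and 0 higher, beside the same shares of all genes. *Pex26*, which anchors the export ATPases at the membrane, fell by 1.24 (SE 0.28, adjusted p = 0.00591). *Pex6*, one of these ATPases, fell by 0.43 (SE 0.11, adjusted p = 0.0135). *Pex2* was at -0.24 (SE 0.11, adjusted p = 0.124). The oxidases had 6 lower and 1 higher, and peroxisomal import 3 lower, without WT APAP replicate 1, beside 12.5% of all genes lower and 15.8% higher.

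Of 7 tested NADPH oxidase genes, which make superoxide at membranes, 0 were called by edgeR and 1 had an unadjusted p under 0.05. Among all genes 14.0% were called higher and 11.4% lower, and 37.1% had an unadjusted p under 0.05. *Nox4* was at -0.48 (SE 0.17, adjusted p = 0.0564), *Ncf1* at 0.33 (SE 0.24, adjusted p = 0.35) and *Cybb* at -0.29 (SE 0.34, adjusted p = 0.58). There was 1 called lower without WT APAP replicate 1, beside 12.5% of all genes. Of the 7 tested relatives of the members' families 0 were called and 2 had an unadjusted p under 0.05. *Prdx4*, the peroxiredoxin of the endoplasmic reticulum, was at -0.03 (SE 0.19, adjusted p = 0.919), and *Sod3*, the extracellular dismutase, at 0.06 (SE 0.17, adjusted p = 0.821). *Gpx4*, the phospholipid hydroperoxide peroxidase, was at -0.04 (SE 0.11, adjusted p = 0.825), and is uncertain because its copy *Gpx4-ps2* holds 989 to 1877 counts per liver that the counting may have split from it.

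The copper chaperone of *Sod1*, *Ccs*, was at -0.41 (SE 0.17, adjusted p = 0.094) over all livers and fell by 0.65 within livers labelled KO (SE 0.18, adjusted p = 0.0336). The remaining relatives were scarce, with *Gpx6* at -1.0 (SE 0.39), *Gpx7* at -0.49 (SE 0.34) and *Gpx8* at 0.58 (SE 0.30), all at 0.10 to 1.04 CPM, and *Gpx2*, with 0 to 8 counts per liver, was not tested. Leaving out WT APAP replicate 1 gave 2 relatives called lower, beside 12.5% of all genes.

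**Figure D5:**
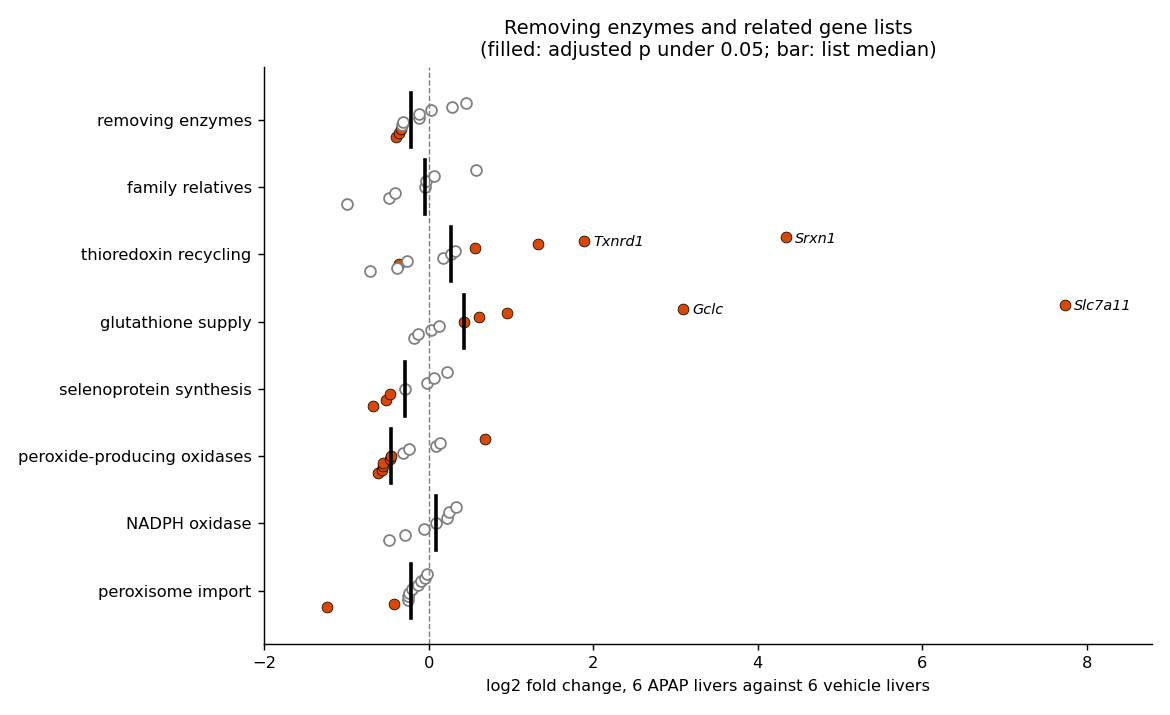
Log2 fold change of APAP against vehicle over all livers for the 10 removing enzymes and the tested genes of 7 related lists, with a bar at each list's median and filled points where the adjusted p was under 0.05. *Srxn1* (4.35), *Gclc* (3.09) and *Txnrd1* (1.89) lie far to the right of every removing enzyme, and the position of *Slc7a11* depends on the constant that the fit adds to counts near 0.

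Across the 12 livers the members did not move as 1 block. The levels of *Prdx6* and *Sod2* on the log2 CPM scale followed each other most closely (Pearson's r = 0.94, and 0.95 without WT APAP replicate 1), followed by *Prdx5* and *Gpx1* (0.93 and 0.92) and by *Prdx2* and *Sod2* (0.91 in both). *Prdx1* stood outside, with r from -0.37 against *Cat* to 0.45 against *Prdx3*, and without WT APAP replicate 1 its r against *Sod1* went from 0.37 to -0.23. *Gpx3* also stood outside, with r from -0.46 against *Cat* to 0.34 against *Sod1*. *Cat* and *Sod1* had an r of -0.0040, and of 0.19 without WT APAP replicate 1. All of these values share libraries, depth and treatment over 12 livers, so they describe the livers and carry no test.

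Among the 8374 genes whose average log2 CPM was 3 or more, the one most like *Prdx6* over the 12 livers was *Txnrd2* (r = 0.98), followed by *March2* and *Hebp1* (both 0.97). The ones most like *Sod2* were *Tmem14c*, *Tm2d2* and *Cyp2d26* (0.96 to 0.97), and those most like *Cat* were *Rfc2*, *Bco2* and *Slco1b2* (0.94 to 0.96). For *Prdx1* they were *Arpp19*, *Spryd7* and *Gas5* (0.95 to 0.96). *Prdx5* and *Gpx1* both had *Phb* and *Ndufa9* among their closest genes, at 0.97 and 0.97 for *Prdx5* and 0.94 and 0.93 for *Gpx1*. *Prdx2* was closest to *Itm2b* (0.96), *Pxmp2* (0.96) and *Hint3* (0.96), *Prdx3* to *B230118H07Rik* (0.97), *Mrps16* (0.96) and *ND2* (0.95), and *Sod1* to *Rps10* (0.96), *Ap2s1* (0.95) and *Gm10293* (0.93). *Gpx3* had the weakest partner, *Slc12a4* (0.85), ahead of *Plpp2* and *Slc6a9* (both 0.80). These genes were ranked by likeness itself, so their r has no test.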

How the data were processed

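RNA from 12 livers (3 per group) was sequenced as stranded poly-A libraries with paired reads of 100 bases. One table of 45777 genes was used, holding 3 measures per liver. Its deposited counts are raw reads per gene. Its deposited TPM were brought by the authors to a near constant total after division by length, and its deposited FPKM, divided by length and depth, were not tested. The submitters' processing notes name FastQC 0.11.7, Trimmomatic 0.38, HISAT2 2.1.0, Bowtie2 2.3.4.1, StringTie 2.1.3b and the mm10 build; which of them counted reads is not given in the sources used here. Counts can differ from TPM where isoforms of unequal length change, and reads shared with copies may be split: *Prdx2-ps1*, *Prdx2-ps2*, *Prdx6-ps2* and *Prdx6b* held 0 to 14 counts per liver.

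After filterByExpr and TMM scaling, edgeR 4.0.16 (R 4.3.3) fitted the counts, and its quasi-likelihood p-values were adjusted by Benjamini and Hochberg's method across every gene in the fit. Called means an adjusted p under 0.05, and higher and lower refer to the first group named. Fits used the livers compared, or all 12 with genotype label as a term, and the interaction added the product of label and treatment. CPM values are TMM-scaled. Log2 fold changes have standard errors and 95% intervals from the same fits. The alternatives were DESeq2 1.42.0 (Wald test, or its size factors in edgeR), no filter, at least 10 counts in every sample, all 12 livers in 1 fit, the replicate number as a block, limma 3.58.1 on log2(TPM + 1) or log2(TPM + 0.1) after quantile normalization, near the study's own scale, and each liver left out in turn. The gene lists without WT APAP replicate 1 were added after seeing the data. The pipeline was tested on simulated data.

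The members and lists were chosen with earlier results of these data known. Named genes are all members, all family relatives, *Gna12*, at most 3 genes of each other list with the smallest unadjusted p over all livers, and the 3 genes most correlated with each member; *Epb42* and *Camp* were named after their values were seen, as markers at 0. Replicates are separate livers. Promoters and gene positions came from RefSeq (GRCm38.p6) and codons from GENCODE.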

Additional observations from a re-analysis of the deposited data

How the results depend on the processing

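In livers labelled KO the number of members called lower was 1, and it became 4 with DESeq2's Wald test, 2 with limma on log2(TPM + 1) or log2(TPM + 0.1), 0 without a filter, 0 with all 12 livers in 1 fit and 0 to 3 with 1 liver left out. Over all livers the count called lower ranged from 1 to 5 and the count called higher from 0 to 1 with 1 liver left out, and no other alternative moved either count by over 1.5 times. In WT livers, between labels and for the interaction the count of members called was 0 under every alternative run. The replicate numbers do not pair the livers, since same-numbered livers had correlations of -0.39 to 0.18 over 18 pairs, with 1 above 0.1. With the replicate block 0 members were called lower in livers labelled KO, and *Sod2* over all livers had an adjusted p of 0.0505.

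The members' estimates whose sign turned under an alternative were not called, with all livers or under that alternative. With 1 liver left out, *Gpx3* ranged from -0.18 to 0.82 within livers labelled KO, -0.029 to 0.40 over all livers, -0.51 to 0.46 for the label after APAP and -0.28 to 0.75 for the interaction, each lowest without KO APAP replicate 3. Within WT livers the ranges were -0.32 to 0.088 for *Prdx3*, -0.28 to 0.039 for *Prdx5*, -0.19 to 0.23 for *Sod1* and -0.51 to 0.032 for *Gpx1*, each lowest without WT APAP replicate 1, and -0.064 to 0.27 for *Gpx3*. *Sod1* ranged from -0.083 to 0.091 over all livers and from -0.096 to 0.081 within livers labelled KO, where *Prdx3* ranged from -0.26 to 0.0072. For the label with vehicle, *Prdx1* ranged from -0.16 (without KO vehicle replicate 3) to 0.31, *Prdx3* from -0.18 to 0.084 and *Gpx1* from -0.23 to 0.083. For the label after APAP the ranges were -0.40 to 0.059 for *Prdx2*, -0.29 to 0.14 for *Prdx3*, -0.32 to 0.021 for *Prdx5*, -0.24 to 0.0075 for *Prdx6* and -0.41 to 0.018 for *Sod1*, each highest without WT APAP replicate 1, and -0.063 (without KO APAP replicate 2) to 0.12 for *Cat*. For the interaction they were -0.32 to 0.17 for *Prdx2*, -0.28 to 0.17 for *Prdx3*, -0.23 to 0.13 for *Prdx5*, -0.15 to 0.11 for *Prdx6*, -0.22 to 0.20 for *Sod1*, -0.24 to 0.034 for *Sod2* and -0.53 to 0.065 for *Gpx1*, again each highest without WT APAP replicate 1.

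*Sod1* within livers labelled KO was -0.0026 with DESeq2's Wald test or size factors, -0.0082 with all 12 livers in 1 fit, -0.0049 with the replicate block and -0.00091 or -0.00092 on log2(TPM + 1) and log2(TPM + 0.1). On these TPM scales alike, the label with vehicle gave 0.015 for *Prdx3* and 0.053 for *Gpx1*, the label after APAP 0.017 for *Prdx5* and 0.092 for *Prdx6*, and the interaction 0.30 for *Prdx6*, 0.024 for *Sod1*, 0.0064 or 0.0065 for *Cat*, 0.042 or 0.043 for *Prdx3* and 0.069 or 0.070 for *Prdx5*. The label after APAP gave 0.049 and 0.050 for *Prdx3* and -0.015 and -0.040 for *Gpx3* there, and -0.027 for *Gpx3* with the replicate block. With at least 10 counts in every sample *Prdx3* was 0.0022 for the label with vehicle. The cause was not tested.

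Of all genes called over all livers, 2307 of 4187 were higher with counts and 1956 of 4446 on log2(TPM + 1). In WT livers 322 genes were called by edgeR, 1413 by DESeq2, 1523 with all 12 livers in 1 fit and 62 with the replicate block. Groups of 3 livers limit what can be called: the 95% interval of *Gpx1* in WT livers reached from -0.91 to 0.62.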
